A study of Mus musculus with 4 samples.

Results

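The genes described here encode the proteins that fill, dock, prime and fuse synaptic vesicles. They are 53 genes listed by function, and all 53 were found by Ensembl ID among the 55422 gene IDs of the deposited matrices. The list holds synaptotagmins, other C2-domain effectors, synapsins, SV2 proteins, SNAREs with Nsf, SNARE regulators, priming factors, active zone scaffolds, Rab3 proteins and vesicular glutamate transporters.

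At a presynaptic terminal, vesicular transporters load glutamate into vesicles, and synapsins hold the vesicles in a reserve pool. Active zone scaffolds such as Bassoon, Piccolo, RIM and ELKS keep vesicles near calcium channels, and Munc13 and CAPS proteins prime them. The SNARE proteins synaptobrevin (Vamp), syntaxin and Snap25 drive fusion, complexins bind the assembled SNAREs, and synaptotagmins sense the calcium that triggers release. Release in the hippocampus differs between the mossy fibres of dentate granule cells, the synapses of CA3 and CA1 pyramidal neurons and the several kinds of interneurons.

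Nuclei from hippocampi of adult mice were profiled with a 10x Genomics Chromium kit, which gives each nucleus a barcode and counts RNA molecules by unique molecular identifiers (UMIs). The Control group was Kat6a-f/f (2 libraries), with loxP sites flanking Kat6a, a gene for a histone acetyltransferase. The Kat6a-cKO group carried NEX-cre and the same Kat6a-f/f alleles (2 libraries), and so differed from Control by Cre. NEX-cre is driven from the Neurod6 locus, which is active mainly in excitatory neurons of the forebrain. Nothing in the labels says that the libraries came from separate animals, so the p-values measure the spread between these 4 libraries, which may be technical.

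Each library held 171323466 to 186897245 counts, and 7613 to 8144 nuclei remained after a minimum of 5000 UMIs and removal of doublets, with median UMI counts of 13706 to 14381. Of these nuclei, 0.538% to 0.644% per library had a barcode that also occurred in another library. Clusters were named from marker genes and are called "-like", and the members were left out of the clustering. Between 10.7% and 16.4% of the nuclei of a library lay in clusters without a name. The largest of these held 1284 nuclei, with Dcn and Ndrg1 among its leading genes. CA1 markers matched it best (2 of 6 raised), but it is not part of the CA1-like class. Cre was counted 0 times in both Control libraries and 158 and 150 times in the Kat6a-cKO libraries. By class, the Kat6a-cKO counts were 40 and 54 in CA3-like, 51 and 53 in CA1-like, 5 and 6 in dentate granule-like and 0 and 2 in inhibitory-like nuclei. Kat6a measured 63 and 65.6 CPM (UMIs of the gene scaled to a total of 1000000) in Control against 59.3 and 65.2 CPM in Kat6a-cKO in CA3-like nuclei. These groups overlapped. Kat6a measured 63.6 and 69 CPM against 61.5 and 63.6 CPM in CA1-like nuclei, 93.4 and 94.9 CPM against 87.5 and 88.1 CPM in dentate granule-like nuclei and 79.4 and 80.6 CPM against 73.9 and 74.1 CPM over all nuclei, lower without overlap in each, though in CA1-like nuclei the nearest libraries of the groups were almost equal. In inhibitory-like nuclei it measured 71.7 and 70.1 CPM against 71.4 and 69.7 CPM and overlapped. UMIs may lie outside the deleted part of the gene, so the values do not check the deletion.

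Sv2b was higher in both pyramidal-like classes than in dentate granule-like nuclei, and Sv2c, Stxbp6 and Syt10 were higher in dentate granule-like nuclei. Their promoters are shown because these 4 genes carry that pattern. Each line gives the 150 bases before the first start site that RefSeq lists (GRCm38.p6, minus strand), 5′ to 3′, with the GC box GGGCGG or its complement CCGCCC in capitals.
Sv2b, chr7:75309263-75309412: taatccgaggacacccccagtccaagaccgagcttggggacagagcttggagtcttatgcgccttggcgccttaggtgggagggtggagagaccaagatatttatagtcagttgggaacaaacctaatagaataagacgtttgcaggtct
Sv2c, chr13:96132578-96132727: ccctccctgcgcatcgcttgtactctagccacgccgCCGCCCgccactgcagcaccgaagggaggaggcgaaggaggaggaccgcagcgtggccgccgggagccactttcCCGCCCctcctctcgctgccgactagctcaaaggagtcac
Stxbp6, chr12:45074484-45074633: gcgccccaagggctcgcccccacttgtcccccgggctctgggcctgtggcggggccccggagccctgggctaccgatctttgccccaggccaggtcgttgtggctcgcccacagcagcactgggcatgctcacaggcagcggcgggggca
Syt10, chr15:89841861-89842010: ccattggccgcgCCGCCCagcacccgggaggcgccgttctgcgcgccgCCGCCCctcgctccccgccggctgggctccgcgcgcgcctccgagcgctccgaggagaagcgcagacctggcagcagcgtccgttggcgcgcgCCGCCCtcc
The window of Sv2c held 2 GC boxes and that of Syt10 held 3, while the windows of Sv2b and Stxbp6 held 0. A RefSeq window was matched for 41 of the 53 members, and 25 of the 41 (61.0%) held a GC box on either strand, against 29.0% of the windows of all 27025 genes. The E-box CAGATG, searched on both strands, was in 0 of the 4 windows, in 3 of the 41 member windows (7.32%) and in 8.84% of all windows. These are matches of letters, and no binding was measured.

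Levels below are CPM of the UMIs summed over a class in a library, and means are over the 4 libraries of both genotypes with their SD (n = 4). Classes were compared with edgeR's quasi-likelihood test with the library as a block. Log2 values, here and below, are given ± a standard error derived from the F statistic of their test. A gene was called where its Benjamini-Hochberg adjusted p over all genes tested was under 0.05 and its log2 difference was at least 1 in size. Of 52 members tested, 34 were called in at least 1 of 4 contrasts (39.4% of all genes called), and Doc2a was too low to test. CA3-like against CA1-like nuclei gave 8 members higher and 9 lower (14.4% of all genes called), and CA3-like against dentate granule-like nuclei gave 8 higher and 11 lower (21.5% of all genes called). CA1-like against dentate granule-like nuclei gave 8 higher and 7 lower (19.5% of all genes called). Inhibitory-like nuclei against the mean of those 3 excitatory classes gave 15 higher and 8 lower (23.0% of all genes called). The median log2 difference of the members in these contrasts was 0.31, -0.15, -0.20 and -0.060, beside -0.018, -0.034, -0.040 and -0.017 for all genes.

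**Figure D1:**
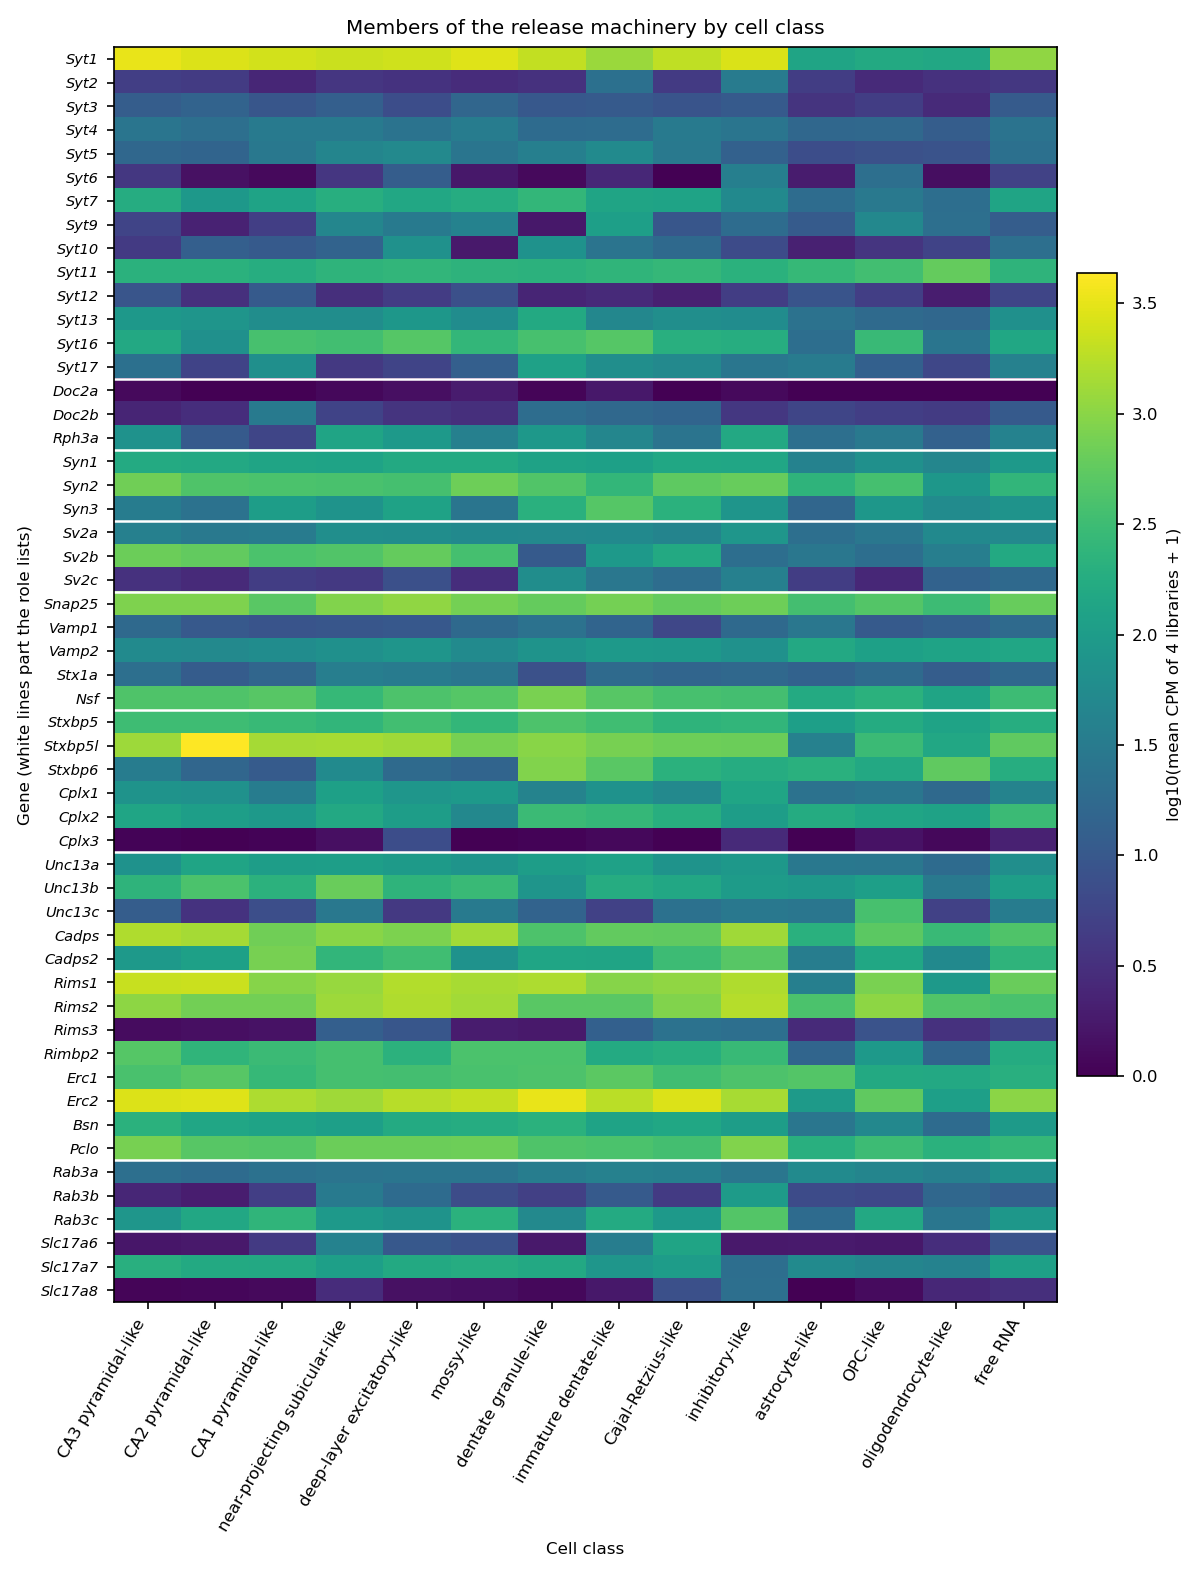
Mean CPM of the 53 members in 13 cell classes and in free RNA, coloured by log10 of the mean of 4 libraries plus 1. Rows are genes and white lines part the role lists. Sv2b is dark in the dentate granule-like column (9.84 CPM) and bright in the CA3-like column (651 CPM), and Unc13c is bright in the OPC-like column (382 CPM).

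The 18 members called in none of the 4 contrasts were the calcium sensor Syt1 with Syt3, Syt4 and Syt11, the synapsins Syn1 and Syn2, Sv2a, the SNAREs Snap25 and Vamp2 with Nsf, the syntaxin-binding Stxbp5, the priming factor Unc13a, Rab3a, and the scaffolds Bsn, Pclo, Erc1, Erc2 and Rimbp2. Differences under the size limit were still measurable among them. Syt1 was at 3265 ± 105 CPM in CA3-like nuclei, and its 4 libraries there lay above every library of the 12 other classes. Snap25 was at 863 ± 19.3 CPM in CA3-like and 509 ± 47.7 CPM in CA1-like nuclei, a log2 difference of 0.75 ± 0.051 (adjusted p = 1.97e-10). Vamp2 differed between inhibitory-like and excitatory nuclei by 0.014 ± 0.039 on the log2 scale (adjusted p = 0.764).

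The vesicular glutamate transporters each marked different nuclei. Slc17a7 (VGLUT1) was at 194 ± 17.2 CPM in CA3-like, 153 ± 12.3 CPM in CA1-like and 154 ± 20.3 CPM in dentate granule-like nuclei, where the last 2 levels lay within their spread. In inhibitory-like nuclei it was at 19.6 ± 3.03 CPM (log2 difference -3.22 ± 0.068, adjusted p = 6.26e-19). Slc17a6 (VGLUT2) measured 163 and 113 CPM in Control against 87.4 and 162 CPM in Kat6a-cKO in Cajal-Retzius-like nuclei. Both genotypes spread widely there and overlapped, and the lowest library still lay above every library of the 12 other classes. That class held only 22 to 34 nuclei and 194322 to 318360 UMIs per library, so its levels here and below rest on few counts. Near-projecting subicular-like nuclei followed with 40.2 CPM and immature dentate-like nuclei with 33.9 CPM. Between the main classes, Slc17a6 was lower in CA3-like (0.638 CPM) than in CA1-like nuclei (3.1 CPM; log2 difference -2.35 ± 0.32, adjusted p = 3.48e-06). Slc17a8 (VGLUT3) measured 12.2 and 22.9 CPM in Control against 16.3 and 30.2 CPM in Kat6a-cKO in inhibitory-like nuclei, against means of 0.126, 0.219 and 0.19 CPM in CA3-like, CA1-like and dentate granule-like nuclei (log2 difference 6.67 ± 0.20, adjusted p = 1.3e-16). Free RNA was estimated to give those 3 classes 0.067, 0.0879 and 0.156 CPM of Slc17a8, and with it subtracted the difference was 7.57, so its size depends on that background.

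The SV2 proteins, glycoproteins of the vesicle membrane, divided the excitatory classes. Sv2b measured 672 and 614 CPM in Control against 667 and 653 CPM in Kat6a-cKO in CA3-like nuclei, and 414 and 374 CPM in Control against 442 and 409.5 CPM in Kat6a-cKO in CA1-like nuclei. In dentate granule-like nuclei it measured 9.66 and 10.3 CPM in Control against 9.79 and 9.63 CPM in Kat6a-cKO. All libraries of both pyramidal classes lay far above all dentate granule-like libraries, and the genotypes overlapped within each class. The log2 difference was 6.12 ± 0.058 for CA3-like (adjusted p = 2.32e-23) and 5.47 ± 0.057 for CA1-like nuclei (adjusted p = 5.65e-23) against dentate granule-like nuclei. RNA free in the droplets was estimated to give dentate granule-like nuclei 11.9 CPM of Sv2b, so a level above free RNA was not detectable there. Inhibitory-like nuclei had 19.7 ± 2.15 CPM (log2 difference -2.95 ± 0.055, adjusted p = 1.02e-19). With free RNA subtracted, the dentate granule-like level came to about 0 (log2 difference 16.87 for CA3-like minus dentate granule-like nuclei). That 1 class then pulled down the mean of logs over the excitatory classes, so the inhibitory contrast, at -0.00067 (adjusted p = 0.263), cannot be read under that setting.

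Sv2c had the opposite distribution. It measured 45.9 and 69.9 CPM in Control against 59.6 and 61.9 CPM in Kat6a-cKO in dentate granule-like nuclei, against 2.27 ± 0.521 CPM in CA3-like and 3.6 ± 0.652 CPM in CA1-like nuclei. No pyramidal-like library came near the dentate range, and the genotypes overlapped. The log2 differences from dentate granule-like nuclei were -4.64 ± 0.17 and -3.96 ± 0.15 (adjusted p = 7.36e-15 and 5.74e-15). Sv2a was spread more evenly, at 32.1 CPM in CA1-like, 38 CPM in CA3-like, 51.3 CPM in dentate granule-like and 81 CPM in inhibitory-like nuclei. Of the synapsins, Syn3 was the one called. It was lower in CA3-like (32.6 CPM) than in CA1-like nuclei (106 CPM; log2 difference -1.72 ± 0.079, adjusted p = 4.27e-13), and it peaked at 478 ± 29.7 CPM in immature dentate-like nuclei, above every library of the 12 other classes.

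**Figure D2:**
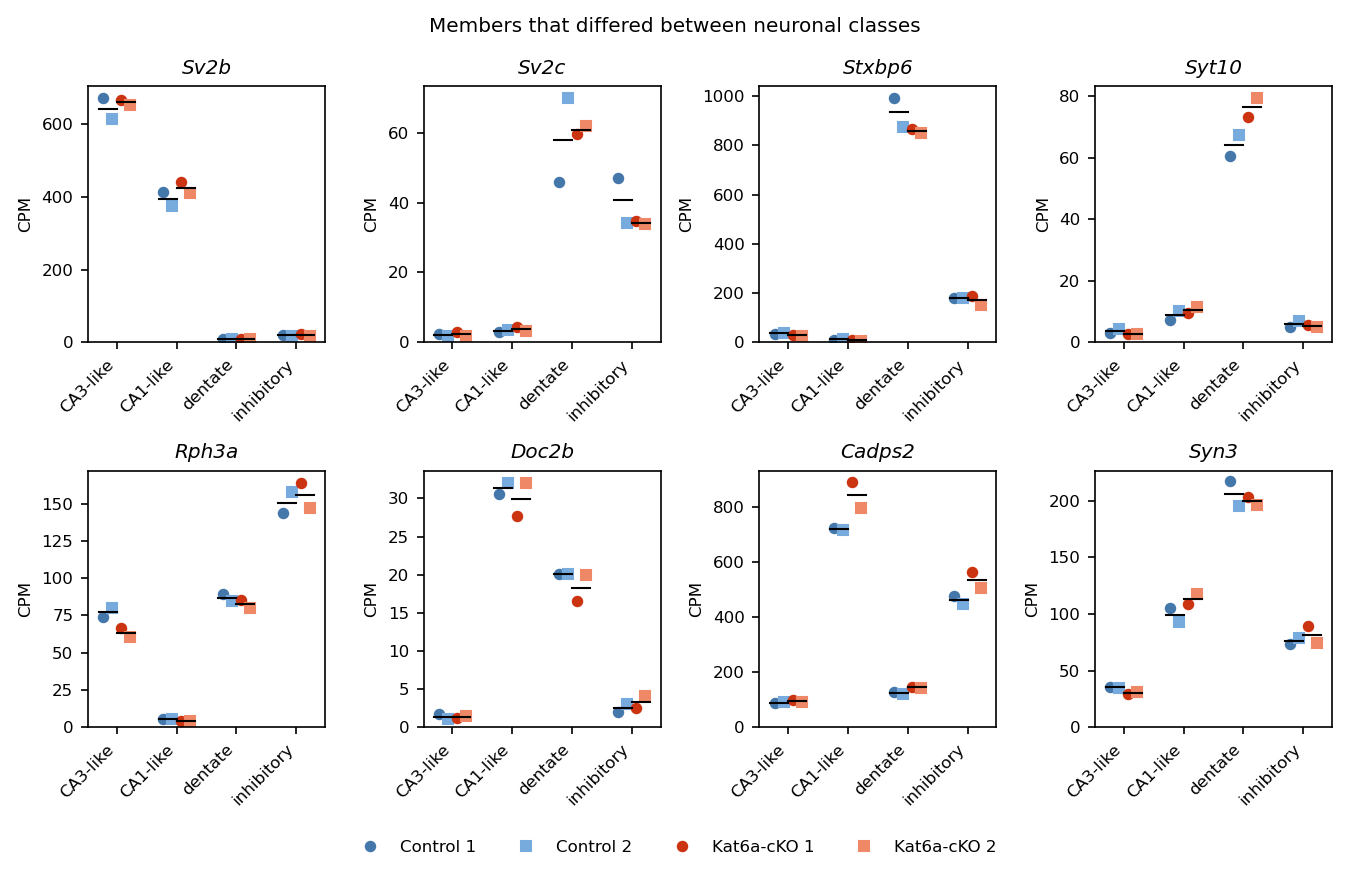
CPM of 8 members in CA3-like, CA1-like, dentate granule-like and inhibitory-like nuclei. Each point is a library, colours mark the genotype, and black bars are means of the 2 libraries of a genotype. Sv2b is high in both pyramidal classes, Sv2c, Stxbp6, Syt10 and Syn3 are highest in dentate granule-like nuclei, and Doc2b and Cadps2 are highest in CA1-like nuclei.

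Of the 14 synaptotagmins, 5 were called between CA3-like and CA1-like nuclei (2 higher, 3 lower, beside 14.4% of all genes). Between CA3-like and dentate granule-like nuclei 7 were called (3 higher, 4 lower, beside 21.5%). There were 4 between CA1-like and dentate granule-like nuclei (2 higher, 2 lower, beside 19.5%) and 7 between inhibitory-like and excitatory nuclei (3 higher, 4 lower, beside 23.0%). Syt10 measured 60.4 and 67.5 CPM in Control against 73.2 and 79.4 CPM in Kat6a-cKO in dentate granule-like nuclei. The CA3-like level was 3.2 ± 0.856 CPM (log2 difference -4.39 ± 0.10, adjusted p = 6.7e-18) and the CA1-like level 9.63 ± 1.71 CPM (log2 difference -2.77 ± 0.08, adjusted p = 1.19e-16). Deep-layer excitatory-like nuclei also held 67.6 CPM. Syt7, a slow, high-affinity calcium sensor linked to facilitation, was also highest in dentate granule-like nuclei at 253 ± 11.4 CPM and was lower in inhibitory-like nuclei (log2 difference -1.91 ± 0.039, adjusted p = 3.53e-19). Syt12 and Syt9 had the reverse pattern. Syt12 was higher in CA1-like (9.85 CPM) than in dentate granule-like nuclei (1.4 CPM; log2 difference 2.90 ± 0.12, adjusted p = 3.73e-14), and so was its CA3-like level (log2 difference 2.59 ± 0.13, adjusted p = 8.72e-13). Syt9, a fast calcium sensor, was at 0.705 CPM in dentate granule-like nuclei, where free RNA was estimated to give 0.763 CPM, and at 113 ± 20.5 CPM in immature dentate-like nuclei. The CA3-like level of Syt9 was 4.51 CPM (log2 difference 2.72 ± 0.21, adjusted p = 6.91e-10 against dentate granule-like nuclei), and the CA1-like level 3.66 CPM (log2 difference 2.41 ± 0.21, adjusted p = 3.28e-09). With free RNA subtracted, these differences were 5.37 and 4.98, so their size depends on that background. Syt2 was low in all 3 excitatory classes and higher in CA3-like (3.8 CPM) than in CA1-like nuclei (1.42 CPM; log2 difference 1.41 ± 0.17, adjusted p = 9.81e-07). Syt6 was at 36.3 CPM in inhibitory-like and 2.95 CPM in CA3-like nuclei, and at 0.246 and 0.231 CPM in CA1-like and dentate granule-like nuclei. It was called in 3 contrasts, with log2 differences of 3.62 ± 0.41 (CA3-like minus CA1-like), 3.70 ± 0.38 (CA3-like minus dentate granule-like) and 5.94 ± 0.17 (inhibitory-like minus excitatory). Free RNA was estimated to give 0.171 CPM of Syt6 in CA1-like and 0.302 CPM in dentate granule-like nuclei, and 1 of 4 libraries lay above the estimate in each. With free RNA subtracted, the 3 differences were 4.5, 7.81 and 7.75, so their size depends on that background.

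Rph3a and Doc2b, C2-domain proteins that act on vesicle docking and calcium-dependent release, separated CA3-like from CA1-like nuclei in opposite directions. Rph3a (rabphilin, a Rab3 effector) measured 74.2 and 79.9 CPM in Control against 66.6 and 60.4 CPM in Kat6a-cKO in CA3-like nuclei and 5.51 and 5.37 CPM in Control against 4.15 and 4.27 CPM in Kat6a-cKO in CA1-like nuclei. The class sums did not overlap (log2 difference 3.84 ± 0.08, adjusted p = 2.41e-18). The difference did not hold in a smaller CA3-like cluster described below, where Rph3a was near its CA1-like level. Dentate granule-like nuclei, at 84.8 CPM, were also far above CA1-like nuclei (log2 difference -4.04 ± 0.077, adjusted p = 1.94e-19 for CA1-like minus dentate granule-like). With free RNA subtracted, these differences of Rph3a were 4.42 and -4.68. Doc2b measured 30.6 and 32.1 CPM in Control against 27.7 and 32.1 CPM in Kat6a-cKO in CA1-like nuclei, against 1.36 ± 0.276 CPM in CA3-like nuclei (log2 difference -4.51 ± 0.11, adjusted p = 2.26e-17). Dentate granule-like nuclei held 19.2 ± 1.72 CPM (log2 difference -3.74 ± 0.11, adjusted p = 3.4e-16 for CA3-like minus dentate granule-like) and inhibitory-like nuclei 2.9 ± 0.889 CPM of it (log2 difference -1.82 ± 0.13, adjusted p = 1.38e-10).

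Among the SNARE regulators, Stxbp6 (amisyn, which binds syntaxin) had the widest range over the 4 main classes. It measured 992 and 877 CPM in Control against 865 and 852 CPM in Kat6a-cKO in dentate granule-like nuclei, against 9.9 ± 2.72 CPM in CA1-like nuclei (log2 difference -6.42 ± 0.099, adjusted p = 7.31e-21) and 32.2 ± 5.41 CPM in CA3-like nuclei (log2 difference -4.74 ± 0.089, adjusted p = 2.21e-19). Free RNA was estimated to give CA1-like nuclei 7.66 CPM of it, and with free RNA subtracted the difference from dentate granule-like nuclei was -8.58. Stxbp6 was also called higher in CA3-like than in CA1-like nuclei (log2 difference 1.68 ± 0.10, adjusted p = 4.4e-11), but this turned on 1 CA3-like cluster. That cluster, with Calcrl and Htr2c among its leading genes, averaged 156 CPM, and the larger cluster with Nectin3 and Trps1 averaged 6.69 CPM. When clusters needed 60% of their markers raised, which left out the first one among others, the difference reversed to -0.59 (adjusted p = 0.000445). With doublets kept it was 0.57, under the size limit, and with free RNA subtracted it was 3.50 (adjusted p = 5.27e-08). Rph3a split the same clusters the other way, at 83 CPM in the larger and 4.91 CPM in the smaller one. Stxbp5l (tomosyn-2, which binds syntaxin and Snap25) stood apart in CA2-like nuclei at 4337 ± 161 CPM, with 1466 CPM in the next class.

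The complexins also differed by class. Cplx1 was at 73.1 ± 6.97 CPM in CA3-like, 33 ± 5.51 CPM in CA1-like, 41.1 ± 5.12 CPM in dentate granule-like and 135 ± 14.7 CPM in inhibitory-like nuclei. The CA1-like and dentate granule-like ranges were the lowest of the 4. Cplx2 was highest in dentate granule-like nuclei at 303 ± 43.2 CPM, followed by CA3-like (135 ± 21.9), inhibitory-like (104 ± 16.9) and CA1-like nuclei (89.5 ± 16.5), and the last 2 lay within their spread. Cplx3 was highest in deep-layer excitatory-like nuclei (6.21 ± 3.94 CPM) and inhibitory-like nuclei (1.69 ± 0.513 CPM; log2 difference 4.22 ± 0.34, adjusted p = 1.22e-09), whose libraries overlapped, and averaged at most 0.523 CPM in each of the 11 other classes. The CA3-like, CA1-like and dentate granule-like levels of Cplx3 (0.0678, 0.0704 and 0.101 CPM) were near those estimated for free RNA (0.0349, 0.0463 and 0.0819 CPM). Of the VAMPs, Vamp1 ran from 7.73 ± 0.493 CPM in CA1-like over 16.3 ± 1.22 in CA3-like and 16.3 ± 0.522 in inhibitory-like to 22.6 ± 1.68 CPM in dentate granule-like nuclei, and the middle 2 did not differ beyond their spread. Vamp2 ran from 53.9 ± 9.73 CPM in CA3-like over 58.3 ± 9.6 in CA1-like and 68.2 ± 8.26 in inhibitory-like to 73.3 ± 12.9 CPM in dentate granule-like nuclei, with neighbours within their spread.

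The priming factors split by paralog. Unc13a (Munc13-1) was at 71.1 ± 2.62 CPM in CA3-like, 85.3 ± 5.36 in inhibitory-like, 104 ± 1.4 in dentate granule-like and 105 ± 2.12 CPM in CA1-like nuclei. Unc13b (Munc13-2) was at 233 ± 9.43 CPM in CA3-like and 215 ± 10.6 CPM in CA1-like nuclei, above inhibitory-like (98.9 ± 2.13) and dentate granule-like nuclei (77.6 ± 2.51), and was called higher than in the dentate in both (1.66 ± 0.038 and 1.56 ± 0.037, log2). Near-projecting subicular-like nuclei had the highest Unc13b, 632 ± 31.2 CPM. Unc13c (Munc13-3) was low in each main neuronal class, at 6.57 ± 1.23 CPM in CA1-like, 10.9 ± 1.21 in CA3-like, 13.2 ± 3.1 in dentate granule-like and 27.1 ± 6.64 CPM in inhibitory-like nuclei. Cadps2, a CAPS protein of vesicle priming, measured 725 and 716 CPM in Control against 891 and 797 CPM in Kat6a-cKO in CA1-like nuclei. It was at 91.2 ± 4.95 CPM in CA3-like (log2 difference -3.11 ± 0.041, adjusted p = 5.2e-21) and 135 ± 11.4 CPM in dentate granule-like nuclei (log2 difference 2.63 ± 0.039, adjusted p = 4.78e-21). Its Kat6a-cKO libraries lay above its Control libraries in CA1-like nuclei, a difference that did not pass the test of genotype given below. The make-up of the CA1-like class differed by library: a cluster with Prlr and Hrh3 among its leading genes held 18.6% of its nuclei in Kat6a-cKO 1 and 4.80% to 6.96% in the other 3 libraries. Cadps2 averaged 834 CPM in that cluster and 694, 858 and 843 CPM in the other 3 clusters.

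Of the 8 active zone scaffolds, 1 was called higher in CA3-like than in CA1-like nuclei (14.4% of all genes called). Against dentate granule-like nuclei, 1 was higher and 1 lower in CA3-like (21.5%) and 0 were called in CA1-like nuclei (19.5%). In inhibitory-like against excitatory nuclei, 2 were higher (23.0%). Rims3, a short member of the RIM family, was at 20.1 CPM in inhibitory-like and 22.7 CPM in Cajal-Retzius-like nuclei, and at 0.321, 0.498 and 0.766 CPM in CA3-like, CA1-like and dentate granule-like nuclei (log2 difference 5.20 ± 0.13, adjusted p = 1.14e-17 for inhibitory-like minus excitatory). With free RNA subtracted, that difference was 5.96. The Rab3 proteins, GTPases on the vesicle surface, were not alike. Rab3a was at 20.2 ± 7.15 CPM in CA3-like, 21.9 ± 6.89 in CA1-like, 26 ± 5.51 in inhibitory-like and 33.8 ± 8.41 CPM in dentate granule-like nuclei, with neighbours within their spread. Rab3b was at 97.5 ± 7.14 CPM in inhibitory-like nuclei and at 1.42, 3.71 and 3.94 CPM in CA3-like, CA1-like and dentate granule-like nuclei (log2 difference 5.01 ± 0.076, adjusted p = 3.73e-21). Rab3c was at 464 ± 30.9 CPM in inhibitory-like, 236 ± 22.1 in CA1-like, 81.1 ± 2.39 in CA3-like and 51.4 ± 4.34 CPM in dentate granule-like nuclei, without overlap between any of the 4.

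Inhibitory-like nuclei were divided further, at a finer clustering, into Pvalb-like, Sst-like, Vip-like, Lamp5-like and Cck-like nuclei, with 55 to 174 nuclei per library in each. These levels are described without a test. For 23 of the 52 members tested in inhibitory-like nuclei, every library of 1 kind lay above every library of the 4 other kinds (13.3% of all genes tested there), and 8 of the 23 were highest in Lamp5-like nuclei, beside 410 of the 1956 genes set apart in the same way. Syt2, a fast calcium sensor, measured 130.2 and 86 CPM in Control against 86.5 and 100.4 CPM in Kat6a-cKO in Pvalb-like nuclei, and no library of another kind passed 9.15 CPM. Cplx1 (202 ± 9.5 CPM) and Vamp1 (30.4 CPM) were also highest in Pvalb-like nuclei. Cck-like nuclei had the highest Slc17a8, Syt6 and Cadps2. Slc17a8 measured 51.6 and 95.5 CPM in Control against 54.1 and 123 CPM in Kat6a-cKO there, a wide spread in both genotypes, with 7.59 CPM in Pvalb-like nuclei, the next kind. Syt6 was at 163 ± 19.3 CPM in Cck-like and 25.8 CPM in Vip-like nuclei, and Cadps2 at 2079.6 ± 281 and 641 CPM. Lamp5-like nuclei held nearly all inhibitory Sv2c. It measured 201 and 155 CPM in Control against 147 and 151 CPM in Kat6a-cKO there, and no library of another kind passed 12 CPM. Cplx3 was at 7.8 ± 2.49 CPM and Rims1, a scaffold of the RIM family, at 2911 ± 79.7 CPM in Lamp5-like nuclei, with 1560.0 CPM of Rims1 in the next kind. Sst-like nuclei had the highest Stxbp6 (418 ± 28.5 CPM) and Rab3b (165 ± 11.5 CPM), and Pvalb-like nuclei followed with 177 and 121 CPM.

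**Figure D3:**
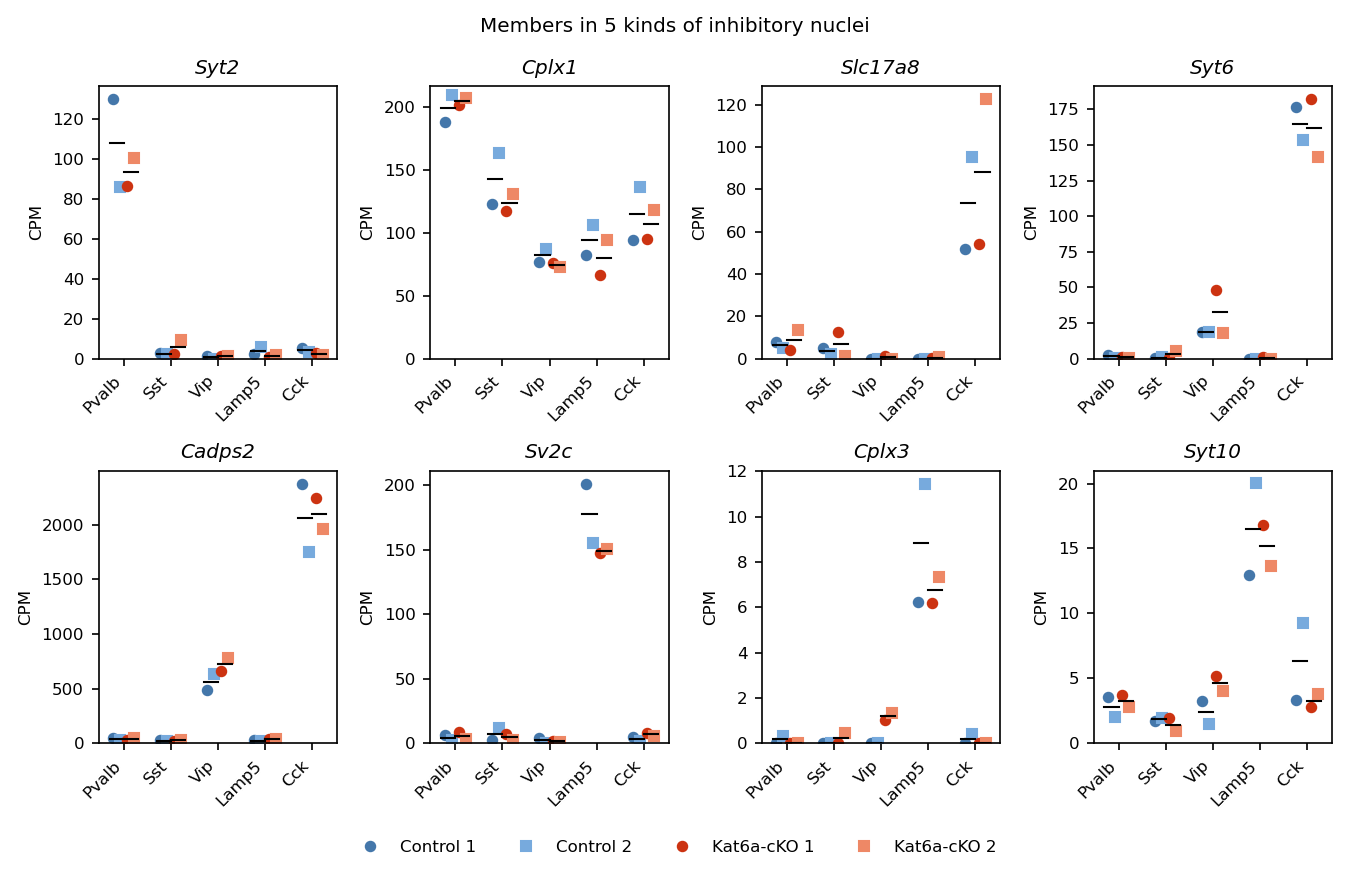
CPM of 8 members in 5 kinds of inhibitory-like nuclei. Each point is a library, colours mark the genotype, and black bars are means of the 2 libraries of a genotype. Syt2 is near 0 outside Pvalb-like nuclei (101 CPM), Slc17a8, Syt6 and Cadps2 peak in Cck-like nuclei, and Sv2c, Cplx3 and Syt10 peak in Lamp5-like nuclei.

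Some members were well above free RNA in glia. Unc13c measured 406 and 375 CPM in Control against 340.0 and 406 CPM in Kat6a-cKO in nuclei like oligodendrocyte precursor cells (OPC), and no library of the 12 other classes passed 45.2 CPM. Free RNA was estimated to give OPC-like nuclei 2.84 CPM. In oligodendrocyte-like nuclei, Syt11, a synaptotagmin that does not bind calcium, was at 601 ± 90.5 CPM and Stxbp6 at 553 ± 111 CPM, where free RNA was estimated to give 19.2 and 15.3 CPM. Erc1, a scaffold of the ELKS family, was at 459.9 ± 59.3 CPM in astrocyte-like nuclei, against 19.4 CPM from free RNA. Erc1 was also in neurons, with 527 CPM in immature dentate-like, 416 CPM in dentate granule-like and 413 CPM in inhibitory-like nuclei. Some members were near the level of free RNA in glia. Of 52 members, 14 in astrocyte-like, 9 in oligodendrocyte-like and 6 in OPC-like nuclei were under 2 times the level estimated for free RNA.

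Members also varied inside the dentate granule-like class. Over its 4 clusters, Sv2c averaged 32.8, 38.8, 79.8 and 166 CPM, and Unc13c 4.37, 8.58, 25 and 32.4 CPM. Both were higher in the 2 clusters that had Plekha2 among their leading genes. Syt10 was lower in those clusters, at 56.7 and 47.5 CPM against 65.5 and 92.9 CPM.

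The design compares Kat6a-cKO with Control. By edgeR's quasi-likelihood test with Benjamini-Hochberg adjustment over all genes, 0 members were called in any class. There were 0 of 49 in CA3-like (0.0259% of all genes called), 0 of 49 in CA1-like (0.141%), 0 of 49 in dentate granule-like (0.422%) and 0 of 52 in inhibitory-like nuclei (0.0272%). There were 0 of 31 in astrocyte-like (0.0312%), 0 of 37 in oligodendrocyte-like (0.0129%) and 0 of 39 in OPC-like nuclei (0.138%), and 0 of 53 over all nuclei (0.0641%). Doc2a, Cplx3, Rims3 and Slc17a8 were too low to test in CA3-like nuclei, Doc2a, Cplx3, Syt6 and Slc17a8 in CA1-like and dentate granule-like nuclei, and Doc2a in inhibitory-like nuclei. At an unadjusted p under 0.05 the counts in the order given were 7, 10, 10, 6, 6, 4, 4 and 10, beside 7.88%, 8.92%, 9.95%, 6.56%, 5.96%, 5.68%, 7.82% and 10.2% of all genes. DESeq2 called 3 in dentate granule-like nuclei (Unc13c, Cplx2 and Rab3a, beside 1.2% of all genes), 5 over all nuclei (beside 2.11%) and 0 in the other 6. The median log2 fold change of the members was 0.0054 in CA3-like, 0.042 in CA1-like, -0.0006 in dentate granule-like and -0.025 in inhibitory-like nuclei, beside -0.0066, -0.0026, 0.0034 and -7.6e-05 for all genes. It was -0.20 in astrocyte-like nuclei (12 members positive and 19 negative), -0.045 in oligodendrocyte-like nuclei, -0.017 in OPC-like nuclei and 0.022 over all nuclei, beside -0.0063, -0.0028, 0.00082 and 0.0027 for all genes. The counts moved when single libraries were left out. Each such fit sets the lone library of 1 group against the 2 of the other, and assumes that the lone library varies like the others. Shares of all genes called in the same fit are given in parentheses. Without Control 1 there were 6 calls in CA3-like (2.01%), 1 in dentate granule-like (0.838%), 1 in OPC-like (0.311%) and 2 over all nuclei (1.01%). Without Control 2 there was 1 in dentate granule-like (1.25%) and 1 over all nuclei (1.21%). Without Kat6a-cKO 1 there were 1 in CA1-like (1.1%) and 3 in inhibitory-like nuclei (0.57%). Without Kat6a-cKO 2 there were 3 in CA1-like (2.43%), 4 in dentate granule-like (1.88%) and 3 in inhibitory-like nuclei (0.851%).

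Vamp2, Rab3a and Cplx2 had lower values in Kat6a-cKO in each of the 7 classes tested, without passing edgeR's test in any, though some passed under other settings. Vamp2 measured 53.6 and 67.6 CPM in Control against 45.3 and 49.2 CPM in Kat6a-cKO in CA3-like nuclei (log2 fold change -0.35 ± 0.10, adjusted p = 0.335), and 77 and 88.1 CPM in Control against 57.2 and 71 CPM in Kat6a-cKO in dentate granule-like nuclei (-0.35 ± 0.098, adjusted p = 0.21). The Kat6a-cKO values were below those of Control without overlap in 7 of 7 classes. In a single class, this held for 17.7% to 22.7% of all genes tested. Rab3a measured 18.5 and 30.4 CPM in Control against 13.7 and 18 CPM in Kat6a-cKO in CA3-like nuclei (-0.61 ± 0.19, adjusted p = 0.388), and the groups were apart in 5 of 7 classes. Its gene overlaps Mpv17l2, so part of its counts may belong to that gene. Cplx2 measured 315 and 358 CPM in Control against 259 and 279.7 CPM in Kat6a-cKO in dentate granule-like nuclei (-0.31 ± 0.069, adjusted p = 0.115), and 113 and 124 CPM in Control against 93.9 and 87.1 CPM in Kat6a-cKO in inhibitory-like nuclei (-0.37 ± 0.084, adjusted p = 0.18), and the groups were apart in 6 of 7 classes. Syt11 also had negative values in 7 of 7 classes, and its groups overlapped in each. The classes come from the same 4 libraries, so the 7 values of a gene are not independent. In CA3-like nuclei without Control 1, which leaves 1 Control library, the log2 fold change was -0.47 for Vamp2 and -0.89 for Rab3a. The Control 1 value of Rab3a left out there was close to that of Kat6a-cKO 2. In dentate granule-like nuclei the log2 fold change was -0.50 for Vamp2 without Kat6a-cKO 2 and -0.38 for Cplx2 without Control 1. In inhibitory-like nuclei it was -0.44 for Cplx2 without Kat6a-cKO 1.

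**Figure D4:**
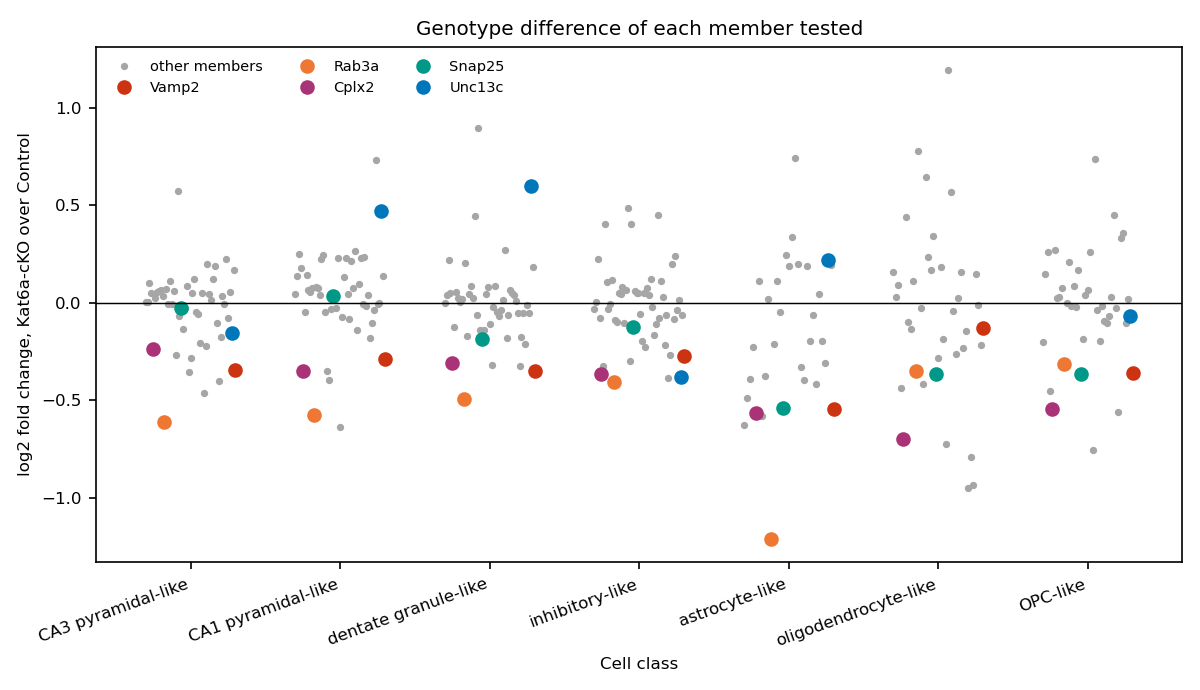
log2 fold change of Kat6a-cKO over Control for each member tested in 7 cell classes. Grey points are members, coloured points mark Vamp2, Rab3a, Cplx2, Snap25 and Unc13c, and the horizontal line is 0. Vamp2, Rab3a and Cplx2 lie below 0 in all 7 classes, and no point passed the adjusted threshold.

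The estimated share of free RNA in the UMIs also differed between the groups in neurons and astrocytes. Taken over the named classes, it was 6.05% and 5.97% in Control against 4.70% and 4.44% in Kat6a-cKO. In the glia estimated from microglia markers, the groups overlapped. Oligodendrocyte-like nuclei had 7.69% and 11.9% in Control against 8.02% and 5.94% in Kat6a-cKO. OPC-like nuclei had 7.15% and 11.9% in Control against 8.73% and 7.46% in Kat6a-cKO. For neurons and astrocytes the estimate comes from oligodendrocyte markers, whose summed level in CA3-like nuclei was 67.7 and 70.4 CPM in Control against 59.4 and 51.5 CPM in Kat6a-cKO, with 0 of the 10 markers at 0 in all libraries. Vamp2, Rab3a and Cplx2 were richer in free RNA (141, 63.9 and 302 CPM) than in nuclei (65.3, 26.2 and 171 CPM). In all, 15 members were at least as high in free RNA as in nuclei. Unc13c was among them (32.2 against 16 CPM), and its log2 fold change in dentate granule-like nuclei was 0.60. With the estimated free RNA subtracted, the log2 fold change was -0.37 for Vamp2 and -0.64 for Rab3a in CA3-like nuclei (adjusted p = 0.65 and 0.757 by edgeR). It was -0.33 for Cplx2 in dentate granule-like nuclei (adjusted p = 0.508). Few genes of any kind were called in that setting: 1 of 14713 in CA3-like, 3 of 15347 in CA1-like, 0 of 15708 in dentate granule-like and 0 of 13921 in inhibitory-like nuclei. Vamp2, Rab3a and Cplx2 are short, at 3.9, 4.0 and 12.6 kb. Not every member with mostly negative values was short or richer in free RNA. Snap25 (69.0 kb) and Syn2 (147 kb) were negative in 6 of 7 classes, with the groups apart in 6 and 5 of them. Their levels in free RNA (609 and 247 CPM) lay under those in nuclei (677 and 481 CPM). Sv2a (14.4 kb) was also negative in 6 of 7 classes, apart in 5 of these, and was higher in free RNA (51.3 CPM) than in nuclei (45.3 CPM). Across members, which share libraries and depth, Spearman's rho between gene length and log2 fold change was 0.38 in CA3-like (49 members), 0.54 in CA1-like (49), 0.48 in dentate granule-like (49) and 0.43 in inhibitory-like nuclei (52). Between the ratio of free RNA to nuclear level and log2 fold change, rho was -0.39, -0.33, -0.33 and -0.40 in the same order. The parts of gene length and of free RNA in these differences were not tested.

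**Figure D5:**
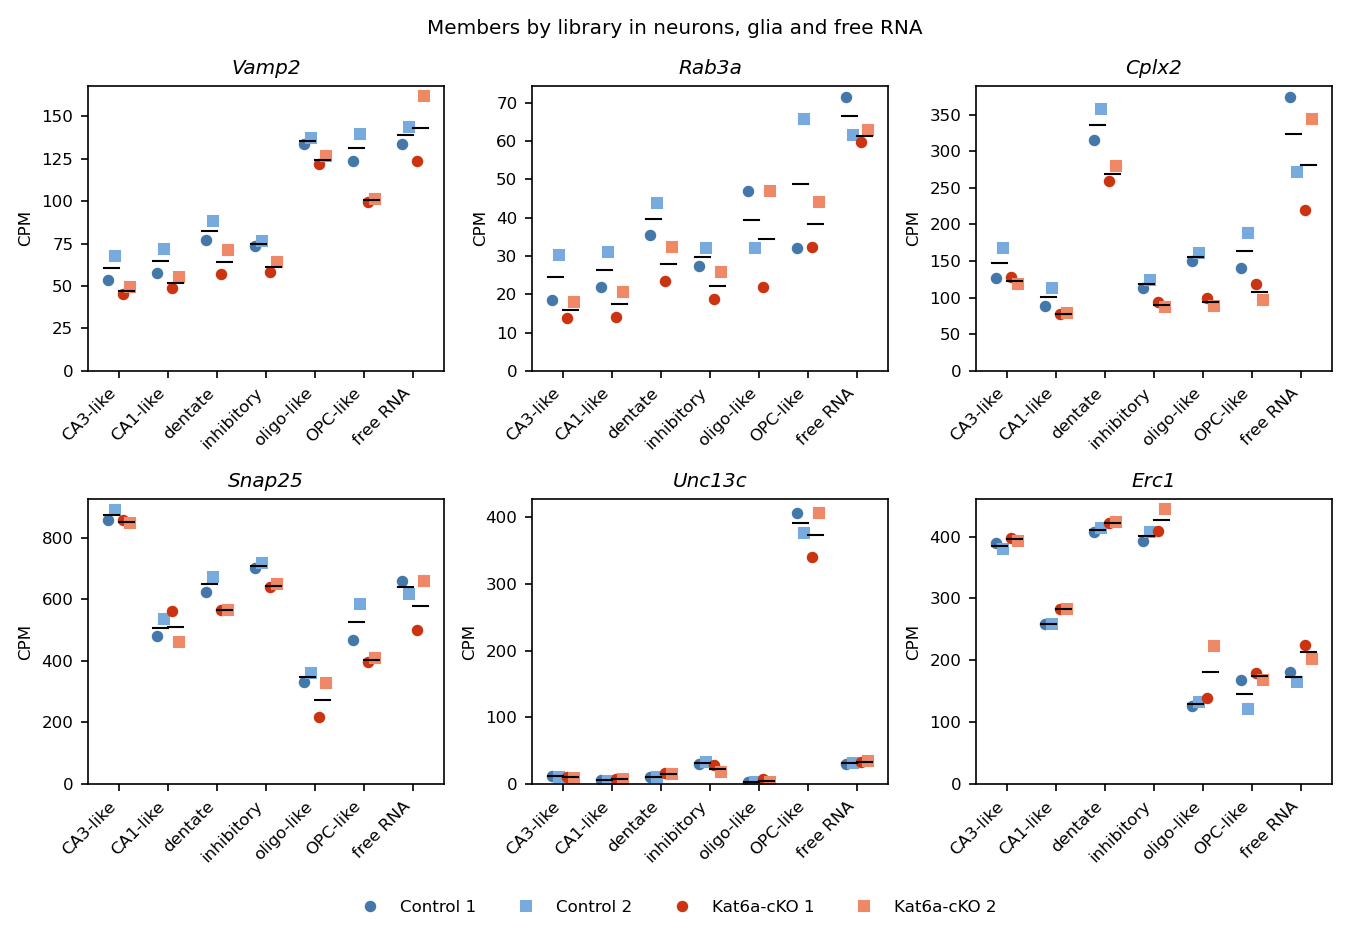
CPM of 6 members by library in neuronal and glial classes and in free RNA. Each point is a library, colours mark the genotype, and black bars are means of the 2 libraries of a genotype. For Vamp2 the Kat6a-cKO points lie below the Control points in each class shown and overlap them in free RNA, and Unc13c is highest in OPC-like nuclei (382 CPM).

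Unc13c was the member nearest to a call. In dentate granule-like nuclei it measured 10.3 and 10.9 CPM in Control against 16.4 and 15.3 CPM in Kat6a-cKO, and both Kat6a-cKO libraries lay above both Control libraries (log2 fold change 0.60 ± 0.10, adjusted p = 0.0521). Over the class, 17.3% of all genes had both Kat6a-cKO libraries above both Control libraries. In the cluster with Trpc6 and Plekha2 among its leading genes Unc13c measured 18.9 and 18.3 CPM in Control against 30.4 and 32.6 CPM in Kat6a-cKO, again without overlap. The groups were apart in the same direction in each of the 4 dentate granule-like clusters. These clusters hold nuclei of the same 4 libraries, so their values are not independent. The adjusted p was 0.0303 without Control 2 and 0.0151 without Kat6a-cKO 2, and 0.00772 by DESeq2. It was 0.00143 with no filter on low counts, 0.0493 at the finer clustering and 0.0416 where clusters needed 60% of their markers raised. Unc13c did not pass without Control 1, without Kat6a-cKO 1, with a filter of 10 CPM, with doublets kept or with a minimum of 10000 UMIs per nucleus. Its adjusted p was 0.376 with free RNA subtracted, at a log2 fold change of 0.74. In that setting 0 of 15708 genes were called in dentate granule-like nuclei, against 73 of 17318 without the subtraction. In CA3-like nuclei Unc13c measured 12.4 and 10.6 CPM in Control against 11 and 9.45 CPM in Kat6a-cKO, which overlapped.

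The other members of lowest p did not pass the test either. In CA3-like nuclei they were Rph3a with 74.2 and 79.9 CPM in Control against 66.6 and 60.4 CPM in Kat6a-cKO (-0.27 ± 0.084, adjusted p = 0.396), the synaptotagmin Syt4 with 24.3 and 32.1 CPM in Control against 19.3 and 23.1 CPM in Kat6a-cKO (-0.40 ± 0.13, adjusted p = 0.434) and Stxbp6 with 35.3 and 37.2 CPM in Control against 31.5 and 24.9 CPM in Kat6a-cKO (-0.35 ± 0.12, adjusted p = 0.448). Syt4 passed without Control 1 (adjusted p = 0.0065). In CA1-like nuclei the lowest p belonged to Stxbp6, with 11 and 13.2 CPM in Control against 7.99 and 7.39 CPM in Kat6a-cKO (-0.64 ± 0.14, adjusted p = 0.208), followed by Cplx2 (-0.35 ± 0.099, adjusted p = 0.316), Stxbp5l (0.23 ± 0.069, adjusted p = 0.352), Rab3a (-0.58 ± 0.19, adjusted p = 0.406) and Cadps2 (0.25 ± 0.084, adjusted p = 0.429). Free RNA was estimated to give most of the Stxbp6 level there (7.66 of 9.9 CPM), and with it subtracted the log2 fold change of Stxbp6 was -0.94 (adjusted p = 0.867). Stxbp6 there passed without Kat6a-cKO 1 (adjusted p = 0.0468) and Rab3a there without Kat6a-cKO 2 (0.00727). In dentate granule-like nuclei, Syt10 measured 60.4 and 67.5 CPM in Control against 73.2 and 79.4 CPM in Kat6a-cKO (0.27 ± 0.074, adjusted p = 0.206), and Rab3a measured 35.5 and 43.7 CPM in Control against 23.4 and 32.5 CPM in Kat6a-cKO (-0.49 ± 0.14, adjusted p = 0.216). Rab3a there passed without Kat6a-cKO 2 (adjusted p = 0.00546), by DESeq2 (0.0441) and with no filter on low counts (0.00146). Cplx2 there passed by DESeq2 (0.0269) and with no filter (0.0018), and Vamp2 with no filter (0.00648). By edgeR with no filter, Stxbp6 (0.00585), Cplx2 (0.0113) and Rab3a (0.000857) also passed in CA1-like nuclei. So did Vamp2 (0.0481) and Rab3a (0.00105) in CA3-like and Cplx2 (0.0117) in inhibitory-like nuclei. In inhibitory-like nuclei Vamp2 (-0.27 ± 0.085, adjusted p = 0.438), Rab3a (-0.41 ± 0.14, adjusted p = 0.558), Syt4 (-0.39 ± 0.14, adjusted p = 0.572) and Cadps2 (0.22 ± 0.081, adjusted p = 0.575) followed Cplx2, and Rab3a, Syt4 and Cadps2 passed without Kat6a-cKO 2 (0.017, 0.0473 and 0.0473).

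By role, the 14 synaptotagmins in CA3-like nuclei had 8 positive and 6 negative log2 fold changes, and 0 of 14 were called. All 3 synapsins had negative values in CA3-like and in dentate granule-like nuclei and positive values in inhibitory-like nuclei, each within -0.21 to 0.12. The active zone scaffolds had 6 positive values of 7 tested in CA3-like, 7 of 8 in CA1-like, 7 of 8 in dentate granule-like and 5 of 8 in inhibitory-like nuclei, with 0 called, where 48.5%, 49.4%, 50.8% and 50.0% of all genes had positive values. They had 3 of 6 in astrocyte-like nuclei (median -0.095) and 5 of 7 each in oligodendrocyte-like and OPC-like nuclei. Of the scaffolds, Erc2 (856 kb), Rims1 (520 kb) and Rims2 (486 kb) are long, while Rims3 (41.8 kb) and Bsn (94.4 kb) are shorter. The part of gene length in these directions was not tested. Erc1 had positive values in 7 of 7 classes, from 0.052 to 0.44, and both Kat6a-cKO libraries lay above both Control libraries in 6 of them. The scaffolds Pclo and Rims2 and the SNARE regulator Stxbp5l also had positive values in 7 of 7 classes, with the groups apart in 0, 3 and 4 of them. In a single class, 14.6% to 17.3% of all genes had both Kat6a-cKO libraries above both Control libraries. The classes share the same 4 libraries, so the values of a gene are not independent.

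Whether the genotype difference itself varied between classes was tested as an interaction of class and genotype, with the library as a block. By edgeR, 0 of 50 members were called between CA3-like and CA1-like nuclei (0.0419% of all genes called), 0 of 50 between CA3-like and dentate granule-like nuclei (0.0855%) and 0 of 50 between CA1-like and dentate granule-like nuclei (0.0789%). At an unadjusted p under 0.05 there were 10, 6 and 6 members, beside 1066 of 16697, 967 of 17552 and 1241 of 17738 of all genes, and DESeq2 was not run. The lowest p belonged to Syn3 in the first (log2 difference of changes -0.44 ± 0.08, adjusted p = 0.127), Unc13c in the second (-0.76 ± 0.15, adjusted p = 0.0739) and Stxbp6 in the third (-0.56 ± 0.13, adjusted p = 0.265). Without Control 1 there were 4 calls in the second (0.544% of all genes), and without Control 2 there were 2 (1.16%), Unc13c among them (adjusted p = 0.000285). Without Kat6a-cKO 2 there was 1 call in the first (1.35% of all genes), Syn3 (adjusted p = 0.0375), and there were 2 in the third (0.68%).

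A list of 92 other release genes (further SNAREs and partners, vesicle membrane proteins, active zone proteins and endocytic proteins) also gave 0 calls by genotype in every class by edgeR. In CA3-like nuclei, 7 of 82 tested had an unadjusted p under 0.05, beside 7.88% of all genes. The 5 of lowest p there were Synpr, Stxbp2, Lin7a, Dnm3 and Lin7c. Synpr, which encodes the vesicle protein synaptoporin, measured 201 and 198 CPM in Control against 152 and 146 CPM in Kat6a-cKO in CA3-like nuclei without overlap (-0.41 ± 0.074, adjusted p = 0.106). DESeq2 gave it an adjusted p of 0.0149, and it passed without Control 1 (0.00893) and without Control 2 (0.000267). Between classes, 5 of 86 tested were higher and 2 lower in CA3-like than in CA1-like nuclei (14.4% of all genes called). Against dentate granule-like nuclei, 4 were higher and 6 lower in CA3-like (21.5%) and 4 higher and 10 lower in CA1-like nuclei (19.5%). In inhibitory-like against excitatory nuclei, 9 were higher and 9 lower (23.0%).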

How the data were processed

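The authors deposited, for each of the 4 libraries, whole-number counts of UMIs per barcode and gene, for all barcodes and without normalization. The genome build mm10 and Seurat 4.0.1 are named in the submitters' processing notes, while the aligner, the annotation and the use of strand are not given in the sources used here. Gene positions are those of GENCODE M21 (GRCm38), and 13 of the 53 members overlap another protein-coding gene, among them Rab3a, Sv2c, Syn3, Cadps2, Vamp1, Unc13a and Syt2. Without a stated strand, reads of overlapping genes cannot be told apart. The members and gene lists were chosen with earlier results of these data known.

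Barcodes with at least 5000 UMIs were kept, and doublets called by Scrublet in scanpy 1.11.5 (expected rate 0.06) were removed. Leiden clustering (leidenalg 0.10.2, resolution 1, and 2 for kinds of inhibitory nuclei) used 2000 variable genes and 30 components and left out 185 genes, all members among them. A cluster was named where at least 40% and at least 3 of a class's markers were raised 2-fold, and these limits were set after seeing the clusters. Some clusters that met them were still left unnamed. The reasons were raised markers of a second lineage, or more markers of another class among the leading genes. Clusters with glial markers were also left unnamed where their median UMI count passed 50% of the library median. The glial classes thus hold only clusters of low counts. Counts were summed per library and class and tested where every library had at least 30 nuclei, in edgeR 4.0.16 (R 4.3.3) with TMM and filterByExpr. CPM are these sums scaled by the total of the library and class to 1000000, without TMM. The free RNA profile came from barcodes of 10 to 100 UMIs. The genotype test was run on simulated counts. Only 2-fold changes were simulated, so this gives nothing on the detection of smaller ones. With 2 libraries against 2, an exact permutation test of a single value cannot give a two-sided p under 0.333.

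The genes named are, per class, the 5 members of lowest p by genotype in CA3-like, CA1-like, dentate granule-like and inhibitory-like nuclei, per class contrast the 4 highest and 4 lowest called, every interaction call, all transporters, complexins, VAMPs, SV2, UNC13 and Rab3 members, and the 5 other release genes of lowest p in CA3-like nuclei. Members named for their level in other classes, kinds of inhibitory nuclei, clusters or glia were chosen after their values were seen. Alternatives were DESeq2 1.42.0, other filters on low counts, a replicate block, each library left out, doublets kept, a minimum of 10000 UMIs, free RNA subtracted, resolution 2 and, chosen after seeing the data, 60% of markers.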

Additional observations from a re-analysis of the deposited data

Results flagged for a closer look

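Synpr, one of the other release genes, was the 1 gene of the members and the other release genes whose genotype difference varied between classes by the test of the interaction. In CA3-like nuclei it measured 201 and 198 CPM in Control against 152 and 146 CPM in Kat6a-cKO, and in dentate granule-like nuclei 761 and 772 CPM in Control against 758 and 702 CPM in Kat6a-cKO. The log2 fold change in CA3-like minus that in dentate granule-like nuclei was -0.37 ± 0.06, adjusted p = 0.0146 by edgeR. Without Kat6a-cKO 1 it was -0.33 (adjusted p = 0.564) and without Kat6a-cKO 2 -0.40 (0.177). It also missed the threshold with free RNA subtracted (0.217) and with a filter of 10 CPM (0.0709).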

How the results depend on the processing

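Counts of members called by class stayed within 1.5 times the values given under all 44 alternatives run. Counts of members called by genotype, 0 in each class by edgeR, moved as follows. With no filter on low counts they were 2 in CA3-like, 4 in CA1-like, 5 in dentate granule-like and 1 in inhibitory-like nuclei, beside 1.1%, 2.05%, 1.91% and 0.517% of all genes. DESeq2 called 3 in dentate granule-like nuclei and 5 over all nuclei, and resolution 2 and the 60% rule called 1 each in dentate granule-like nuclei, beside 0.427% and 0.442% of all genes. Leaving out each library in turn gave 0 to 6 in CA3-like, 0 to 3 in CA1-like, 0 to 4 in dentate granule-like, 0 to 3 in inhibitory-like, 0 to 1 in OPC-like nuclei and 0 to 2 over all nuclei, and 0 in astrocyte-like and oligodendrocyte-like nuclei. There the lone library of a group was assumed to vary like the others. The members' median log2 fold change moved by more than the spread between libraries in 20 settings and by less in 79. For the interactions, no filter gave 2 (CA3-like against CA1-like), 1 (CA3-like against dentate granule-like) and 6 (CA1-like against dentate granule-like), beside 0.779%, 0.295% and 1.08% of all genes, the 60% rule gave 1, 1 and 2 (beside 0.383%, 0.383% and 0.586%), doublets kept gave 1 in the second (beside 0.0851%), and leaving out libraries gave 0 to 1, 0 to 4 and 0 to 2. The cause of these moves was not tested. All 325 values of members and other release genes named by genotype kept their direction, and 41 passed the threshold under an alternative. Of 349 values of members named by class, 1 reversed (Stxbp6 in CA3-like against CA1-like nuclei, -0.59 with the 60% rule, which leaves out clusters) and 2 fell under the limits.

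The replicate number was used as a block in 1 alternative, which called 3 members in CA3-like nuclei, 4 in dentate granule-like nuclei, 7 over all nuclei and 0 in the other classes, beside 1.62%, 0.941% and 3.5% of all genes in the first 3. With the block, the members that passed were Rab3a (adjusted p = 0.00853), Vamp2 (0.0297) and Syt4 (0.0483) in CA3-like nuclei, and Cplx2 (0.0339), Rab3a (0.0386), Unc13c (0.0413) and Vamp2 (0.0494) in dentate granule-like nuclei. Of the other release genes, Synpr passed in CA3-like nuclei (0.00129). Libraries share only a number in the labels, and the deviations of same-numbered libraries correlated across genes by 0.20 in CA3-like, 0.26 in dentate granule-like and 0.44 over all nuclei. The correlation was 0.22 in CA1-like, 0.15 in inhibitory-like, 0.063 in astrocyte-like, -0.044 in oligodendrocyte-like and 0.021 in OPC-like nuclei. Over all genes, the number called in CA3-like nuclei went from 4 to 30 by DESeq2, 297 with no filter and 250 with the block. The minimum of 10000 UMIs was not run for glia (under 30 nuclei), nor were resolution 2 and the 60% rule over all nuclei. DESeq2 and the replicate block were not run for the interactions or the class contrasts. Low members such as Cplx3 and Doc2a were too low to test by genotype in most classes. The part of sequencing depth in this was not tested.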
